A study of Zea mays with 4 samples.

Results

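Genes that set stem height and carry the signals of gibberellin and auxin were examined in young stacked internodes of maize. The probe sets were those whose gene symbol, or RefSeq symbol or synonym, was d3, d8, d9, an1, br2, abp1, abp4 or aic1, ignoring case. The rule found 6 probe sets among the 17734 on the array, 1 each for an1, d3, abp1, abp4, aic1 and adf1. The last was found only because ABP1 is also a synonym of the actin-depolymerizing factor gene adf1. It is therefore described apart from the 5 hormone genes. No probe set was paired with d8, d9 or br2 in the annotation used here, so these genes were not analysed here.

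Gibberellins and auxin both drive the elongation of grass internodes. Gibberellin is built from a plastid diterpene by cyclases, of which an1 encodes the ent-copalyl diphosphate synthase of the entry step. The cytochrome P450 encoded by d3 oxidises ent-kaurenoic acid in the middle of the pathway, and later oxidases finish the hormone. The hormone acts by removing DELLA repressors such as those of d8 and d9. Auxin enters cells through carriers of the AUX1 type, to which aic1 (auxin import carrier) belongs, is exported by proteins including the ABCB transporter of br2, and binds the small endoplasmic reticulum proteins encoded by abp1 and abp4. In maize, loss of an1, d3 or br2 shortens the stem.

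The study set 2 CCR mutant samples against 2 samples named WS, each on 1 Affymetrix maize array. The mutant has a lowered activity of the gene for cinnamoyl-CoA reductase (CCR), which makes lignin precursors, per the labels. The labels give all plants the same light and temperature, with a 16 h day at 25 °C and an 8 h night at 22 °C. Internodes were taken when the plants had 6 to 7 leaves. The CCR mutant samples were single extracts of 144 and 182 µg RNA with no treatment recorded; the labels do not say how the mutant was made. The WS samples were pools, in which 185 or 215 µg of the named extract was mixed with 3 further extracts of 1 µg each. A drought entry of 36 h at a REW of 20 to 30% stands in the WS labels. What WS and REW stand for is not stated there. Mutant background, pooling and recorded treatment cannot be told apart in any difference below, and the labels do not say whether the replicates are separate plants. The p-values therefore cover the spread between these samples only, which may be technical.

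Values are GCRMA expression values, taken as log2, in which a step of 1 is a doubling of signal. A probe set was tested when it reached 4 on at least 2 arrays, which 11085 probe sets did. The arrays were alike in range, with medians of 6.57 and 6.55 in the CCR mutant and 6.60 and 6.58 in WS. The CCR gene cncr1 had 8.59 and 9.14 in the CCR mutant against 10.99 and 10.13 in WS. The other CCR gene found, cncr2, had 5.59 and 5.13 against 5.93 and 5.0. Both CCR mutant arrays lay below both WS arrays for cncr1, but its adjusted p with limma was 0.68. The meristem gene kn1 had signal in every sample, at 8.49 and 8.35 in the CCR mutant and 9.04 and 8.38 in WS. The arrays also carried leaf transcripts such as ssu1, a Rubisco small subunit, at 12.26 and 12.39 in the CCR mutant and 12.32 and 11.97 in WS.

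Of the 6 probe sets, 4 were tested: an1, abp1, abp4 and aic1. None passed at an adjusted p under 0.05 (0 of 4), where 0.153% of all tested probe sets passed. At an unadjusted p under 0.05 there was 1 of 4, aic1, against 6.43% of all tested probe sets (4.24% when only those lower in the CCR mutant, like aic1, are counted). The CCR mutant and WS arrays did not overlap for 1 of the 4, again aic1, against 36.5% of all tested probe sets (23.5% with the CCR mutant lower). With 1 of 4 in each case, these counts do not set the genes apart from the rest of the array. The CCR mutant mean was lower for 3 and higher for 1, with a median difference of -0.06, and all tested probe sets had a median of -0.04. The median size of the 4 differences, 0.06, was below the 0.10 of all tested probe sets. Levels of different genes are not compared here, because each probe set has its own brightness.

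**Figure D1:**
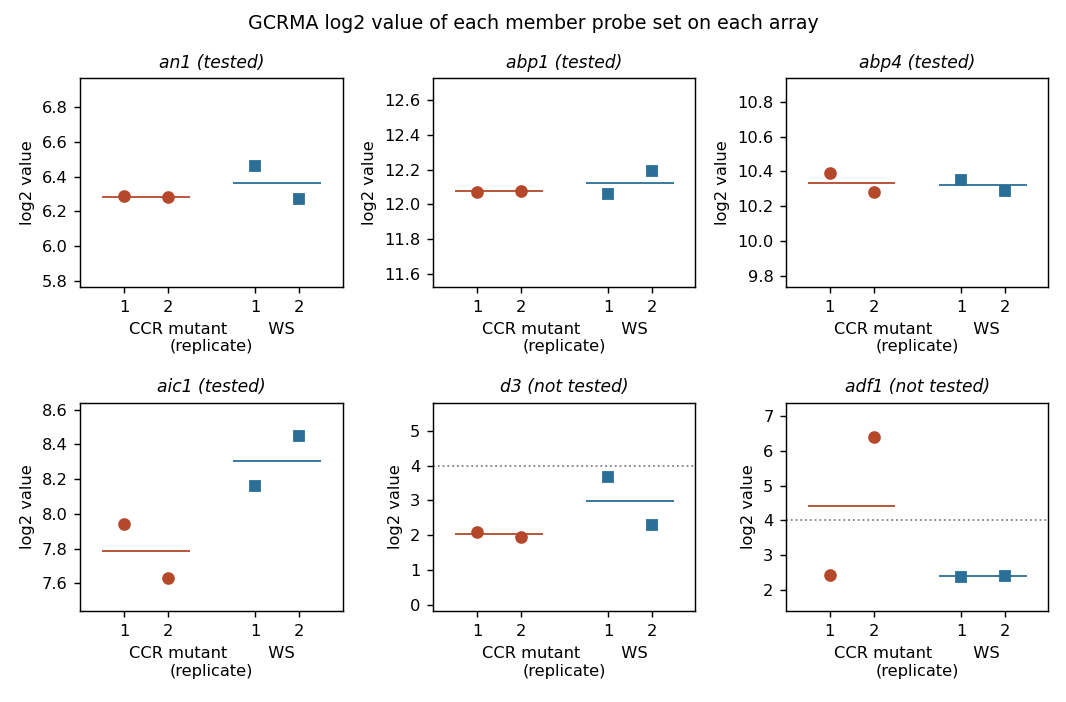
GCRMA log2 value (vertical axis) of each of the 6 probe sets on each array, with CCR mutant arrays as circles, WS arrays as squares and horizontal lines at the group means of 2 arrays. The upper row and aic1 are drawn over the same span of the axis, d3 and adf1 over a wider span with a dotted line at the level of 4 used for testing; aic1 has both CCR mutant arrays below both WS arrays, and adf1 has 1 CCR mutant array at 6.39 and the other 3 arrays near 2.4.

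Gibberellin synthesis comes first by its entry step. The log2 value of an1 was 6.29 and 6.28 in the CCR mutant, against 6.46 and 6.27 in WS. The CCR mutant arrays lay together within the range of the WS arrays, so the groups overlapped. The difference was -0.08 (SE 0.10, 95% confidence interval -0.36 to 0.20, limma adjusted p = 0.885). As a ratio of CCR mutant to WS this interval covers 0.777 to 1.15, so changes larger than these bounds lie outside it and smaller ones could not be seen. The sign of the small difference rested on WS replicate 1, the highest of the 4 arrays: without it the difference was 0.01. The signal of an1 was above the reporter background given below on all 4 arrays.

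The kaurenoic acid oxidase gene d3 was not tested, since it reached 4 on none of the arrays. Its values were 2.10 and 1.95 in the CCR mutant, against 3.67 and 2.29 in WS. To place these, probe sets for foreign reporter genes, taken as absent from maize, serve as a background. Of the 66, 1 reached 13.77. It was left aside as too bright for a background, and why it was bright was not tested. The other 65 were at or below 3.43 on every array. The level of 3.43 is thus the highest value among those 65. Both CCR mutant arrays and WS replicate 2 were under that level and WS replicate 1 was slightly above it. The groups did not overlap, but the WS arrays differed from each other by 1.38. No difference or fold change is given for values at background. The dim signal says only that this probe set did not detect d3 well in these samples.

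The other gibberellin genes came from a list of cyclase, oxidase, receptor and DELLA names, of which 4 probe sets were found and 2 tested, an1 and eks1. The list had 0 higher and 2 lower in the CCR mutant and 0 passing, with a median difference of -0.35, beside 62.7% lower and a median of -0.04 over all tested probe sets. With 2 probe sets this median is only the midpoint of an1 at -0.08 and eks1 at -0.61, and does not describe the pathway. The median of the list was -0.22 without CCR mutant replicate 1, -0.48 without CCR mutant replicate 2, -0.26 without WS replicate 1 and -0.44 without WS replicate 2. The gene eks1 carries ent-kaurene synthase names in the RefSeq table, the step after an1, but also the terpene synthase name tps1, so its place in gibberellin synthesis is not settled here. Its values were 7.54 and 8.06 in the CCR mutant, against 8.50 and 8.33 in WS. Both CCR mutant arrays lay below both WS arrays, and CCR mutant replicate 1 was the lowest. The difference was -0.61 (SE 0.21), a ratio of CCR mutant to WS of 0.653 (95% confidence interval 0.428 to 0.997). With limma its adjusted p was 0.774. It shrank to -0.36 without CCR mutant replicate 1. The second ent-copalyl diphosphate synthase gene, an2, known in maize for defence diterpenoids, was not tested, with values of 2.13 and 2.11 in the CCR mutant and 2.08 and 2.07 in WS, all within the reporter background.

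Both auxin-binding protein genes differed between the groups by less than their error. The log2 value of abp1, whose protein was first described as an auxin receptor candidate in maize coleoptiles, was 12.07 and 12.08 in the CCR mutant, against 12.06 and 12.19 in WS. The groups overlapped, with WS replicate 2 the highest array and the other 3 within 0.02 of each other. The difference was -0.05 (SE 0.09, 95% confidence interval -0.29 to 0.19, limma adjusted p = 0.917), which as a ratio of CCR mutant to WS covers 0.816 to 1.14. Without WS replicate 2 it was 0.01.

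The related gene abp4 had 10.39 and 10.28 in the CCR mutant, against 10.35 and 10.29 in WS. The WS arrays lay between the CCR mutant arrays. The difference was 0.02 (SE 0.08, 95% confidence interval -0.23 to 0.26, limma adjusted p = 0.977), a ratio between 0.855 and 1.19. It was -0.04 without CCR mutant replicate 1 and -0.02 without WS replicate 2. The replicate spread of this pair was low for the array: 26.1% of tested probe sets had a smaller residual SD than abp1 and 24.6% a smaller one than abp4. For both genes the intervals therefore bound any change more tightly than for aic1, for which 76.8% had a smaller residual SD. That abp1 and abp4 differed by less than their error does not show that they were equal in the groups.

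The auxin import carrier gene aic1 had the largest difference of the 4 tested genes. Its log2 value was 7.94 and 7.63 in the CCR mutant, against 8.16 and 8.45 in WS. Both CCR mutant arrays were below both WS arrays. Taken array by array, the CCR mutant was lower by between 0.22 and 0.82 on the log2 scale. The 4 pairings of a CCR mutant with a WS array share arrays, so they restate that the groups did not overlap. The means were 7.78 ± 0.22 in the CCR mutant and 8.30 ± 0.21 in WS (SD, n = 2 each). The difference of -0.52 (SE 0.17, 95% confidence interval -1.01 to -0.03) corresponds to a ratio of CCR mutant to WS of 0.697, with an interval of 0.496 to 0.98.

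The limma p of aic1 was 0.0425 and its adjusted p 0.772, so it did not pass. It ranked 601 of 11085 by p, and 5.02% of tested probe sets had a larger difference in size. Leaving out any 1 of the arrays kept the difference below 0, at -0.68 without CCR mutant replicate 1, -0.37 without replicate 2 of the mutant, -0.67 without WS replicate 1 and -0.38 without WS replicate 2, but the unadjusted p was then between 0.0539 and 0.178. With the replicate number as a block the unadjusted p was 0.089. With arrays centred on their medians the difference was -0.48, with a limma adjusted p of 0.886.

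**Figure D2:**
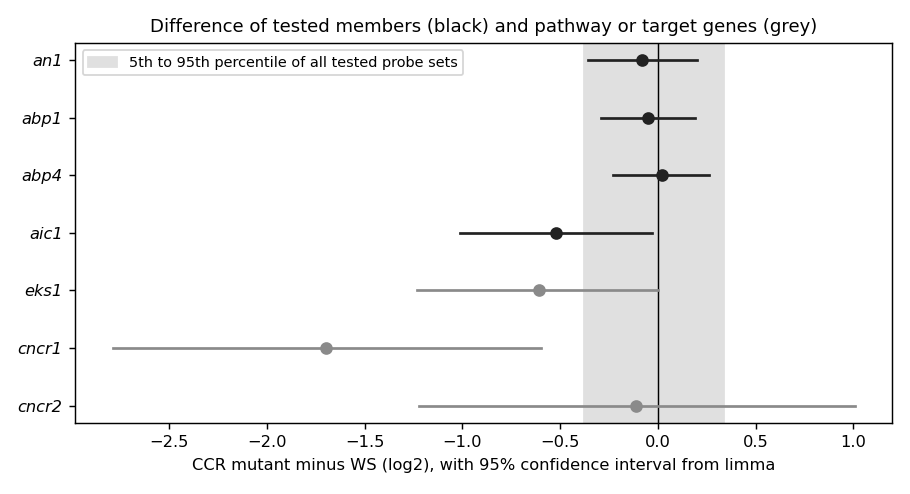
Difference in log2 value, CCR mutant minus WS (horizontal axis), with 95% confidence intervals from limma, for the 4 tested hormone genes in black and for eks1 and both CCR genes in grey. The shaded band runs from -0.38 to 0.34, the 5th to 95th percentile of all tested probe sets; an1, abp1 and abp4 lie inside it, while aic1 at -0.52, eks1 at -0.61 and cncr1 at -1.70 lie to its left.

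All 7 tested markers of meristem and dividing cells had lower means in the CCR mutant, as aic1 did, beside 62.7% of all tested probe sets. Their median difference was -0.38, and 0 passed. Their mean log2 value per array was 6.92 and 6.79 in the CCR mutant, against 7.18 and 7.28 in WS. The 7 markers did not all share a pattern over the arrays. The groups did not overlap for 3 of the 7 (cyc1, cyc3 and PCNA), beside 23.5% of all tested probe sets with the CCR mutant lower. They overlapped for the other 4. PCNA was a narrow case, with 9.08 on CCR mutant replicate 1 and 9.09 on WS replicate 1. However, cyc1 and cyc3 ran nearly in parallel and may not count as separate markers. The values of cyc1 were 6.06 and 6.04 in the CCR mutant against 6.26 and 6.88 in WS. Those of cyc3 were 6.83 and 6.81 against 7.08 and 7.70. The list mean, like aic1, was lowest on CCR mutant replicate 2 and highest on WS replicate 2. The homeobox genes kn1 and lg3 did not follow aic1, since both were highest on WS replicate 1, and lg3 had 5.29 and 5.55 in the CCR mutant against 6.28 and 5.32 in WS. The part of these markers in the aic1 value was not tested. In a whole internode, fewer cells of a type and less RNA per cell cannot be told apart. Of the 4 markers of secondary wall and xylem, 1 was higher and 3 lower in the CCR mutant, with a median difference of -0.18. Their mean overlapped between the groups, at 9.97 and 10.35 in the CCR mutant against 10.47 and 10.12 in WS. The leaf list ran the other way: of 7 tested probe sets 6 were higher and 1 lower, with a median difference of 0.16. In neither list did any pass. Most of the 7 leaf probe sets were of the same gene, ppdk1. The leaf mean also overlapped, at 10.91 and 10.96 in the CCR mutant against 11.03 and 10.54 in WS.

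The named genes most like aic1 over the 4 arrays were found by the root mean square distance between mean-centred log2 profiles, among 884 probe sets with 1 named gene. The nearest were KIN8 and zfp30, both at a distance of 0.068, and PCNA at 0.0809, where the median distance was 0.318. KIN8 had 7.74 and 7.5 in the CCR mutant, against 7.94 and 8.13 in WS. The values of zfp30 were 7.90 and 7.57 in the CCR mutant, against 8.19 and 8.29 in WS. PCNA, the sliding clamp of DNA replication and 1 of the 7 markers above, had 9.08 and 8.70 in the CCR mutant, against 9.09 and 9.43 in WS. All 3 had CCR mutant replicate 2 as the lowest and WS replicate 2 as the highest array, like aic1, and their adjusted p-values were between 0.772 and 0.801. The genes were picked for being near aic1 on these same arrays, so a shared lowest and highest array is no separate result. With 4 arrays such likeness is a description of these samples. The other 3 tested genes spanned 0.11 to 0.19 over the arrays, under the 0.5 set for this search.

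**Figure D3:**
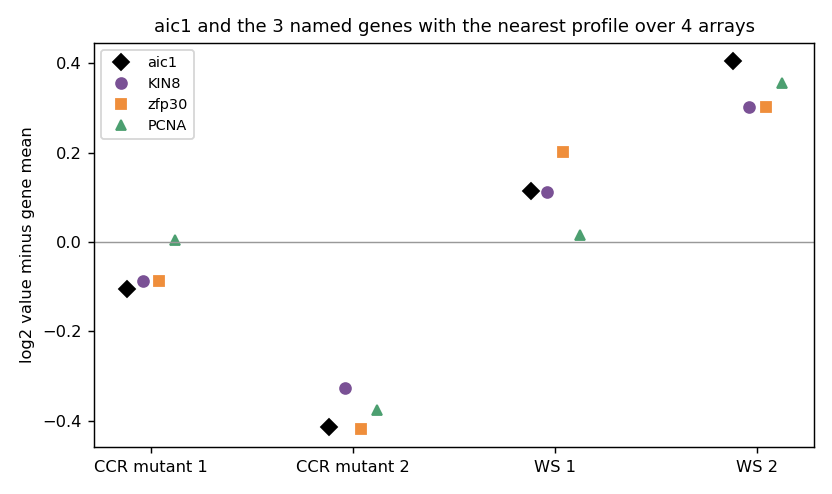
Log2 value minus the gene's mean over the 4 arrays (vertical axis) for aic1 and the 3 named genes with the nearest profile, on each CCR mutant and WS array. All 4 genes are lowest on CCR mutant replicate 2 and highest on WS replicate 2, where aic1 had 7.63 and 8.45.

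The list of auxin synthesis, binding, transport and response genes held 5 probe sets, of which abp1, abp4 and aic1 were tested. Of these 1 was higher and 2 lower in the CCR mutant, 0 passed, and the median difference was -0.05, close to the -0.04 of all tested probe sets. The other members were at background. A gene listed as yuc, the name of flavin monooxygenases that make auxin, had 1.83 and 1.82 in the CCR mutant and 1.80 on both WS arrays. The probe set of ba1 (barren stalk1), a basic helix-loop-helix factor needed for axillary meristems, had 1.89 on both CCR mutant arrays against 1.86 and 1.87 in WS. Among other stature genes only te1 (terminal ear1), which encodes an RNA-binding protein that restrains leaf initiation, was found, with 2.04 and 2.02 in the CCR mutant and 1.98 and 2.0 in WS. No brassinosteroid gene of the list was found (0 probe sets). At such levels GCRMA gives nearly constant values, so no difference between the groups is read from them.

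**Figure D4:**
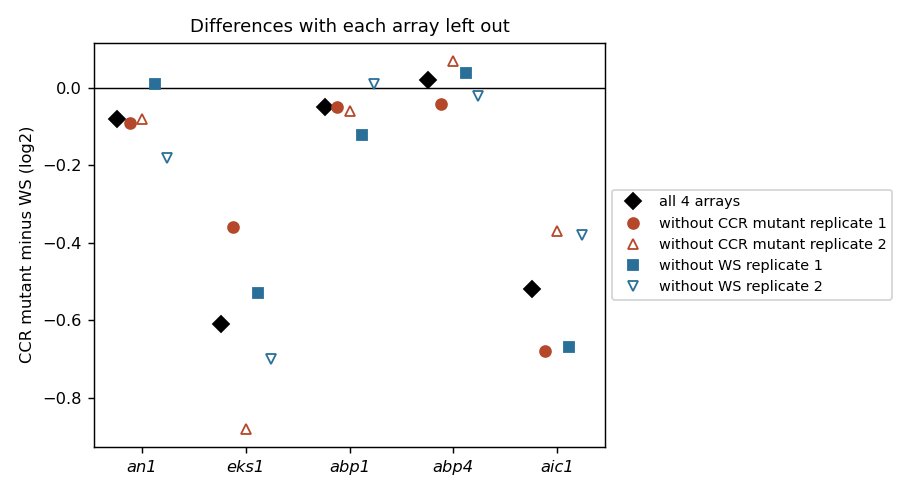
Difference in log2 value, CCR mutant minus WS (vertical axis), from all 4 arrays and with each array left out, for the 4 tested hormone genes and eks1. The differences of aic1 and eks1 run from -0.68 to -0.37 and from -0.88 to -0.36. Those of an1, abp1 and abp4 stand on both sides of 0. For aic1 and eks1 the groups do not overlap, so leaving out an array could not change the sign.

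The probe set of adf1, found through its synonym ABP1, had 2.44 and 6.39 in the CCR mutant, against 2.38 and 2.40 in WS. The signal thus lay in CCR mutant replicate 2 alone, and the other CCR mutant array differed from the WS arrays by at most 0.06. As 1 array reached 4, adf1 was not tested. Actin-depolymerizing factors sever and turn over actin filaments, and maize adf1 and adf2 are known from pollen. The probe set of adf2, looked up after the adf1 values had been seen, was at background, with 2.37 and 2.36 in the CCR mutant and 2.30 and 2.31 in WS. Probe sets under 4 on 3 arrays and at 6 or more on the remaining one were rare throughout: there were 5 for CCR mutant replicate 1, 4 for CCR mutant replicate 2, 0 for WS replicate 1 and 10 for WS replicate 2. Of the 4 for CCR mutant replicate 2, adf1 and pht7 had a name, and pht7 had 2.39 and 6.22 in the CCR mutant against 2.41 and 2.42 in WS.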

How the data were processed

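Transcript levels were measured in 2 CCR mutant and 2 WS samples, 1 Affymetrix array each, with 20 µg of amplified RNA, per the labels' protocols. The deposited table holds log2 values from GCRMA, as the submitters' processing notes name it; the log base was taken from the range of the values, and neither it nor a version of GCRMA is stated. That method models background from the bases of each probe and normalizes arrays by quantiles. It draws dim probe sets to nearly constant values, which narrows their spread.

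The values were not normalized again. After 179 control probe sets were left out, probe sets at 4 or more on at least 2 of the 4 arrays were fitted with limma 3.58.1 in R 4.3.3 (lmFit and eBayes, CCR mutant minus WS, two-sided), with Benjamini-Hochberg adjustment over all 11085 and a threshold of 0.05. The fit had 2 residual degrees of freedom. The number of arrays limits the precision.

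Gene names come from a 2007 platform annotation, which pairs 1452 probe sets with 1 gene, and from RefSeq (Zm-B73-REFERENCE-NAM-5.0). These tables hold no gene descriptions, so lists were matched by symbol and synonym only. A probe set named arf1 (a symbol of auxin response factors and of ADP-ribosylation factors) and a catalase with the synonym Ct2 were left out. No build is given for the array, so no coordinates are printed, and no sequences were used here. The members and lists were chosen with earlier results of these data known. The text names all members, both CCR genes, all genes of the hormone lists and the 3 nearest profiles of each tested member spanning at least 0.5; pht7 and adf2 were named after their values were seen, and the markers given singly were picked as examples.

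The alternatives tried changed the filter (none, or a level of 6), the variance model (trend, robust), the scaling (quantiles again, or arrays centred on their medians), the design (replicate block, each array left out) and the probe sets (those ending in _s_at or _x_at left out, values below 4 set to 4).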

Additional observations from a re-analysis of the deposited data

How the results depend on the processing

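Over the 12 alternative fits the difference of aic1 ran from -0.68 to -0.37 and that of eks1 from -0.88 to -0.36. In the fits that kept every array their adjusted p was over the threshold. Most of these fits could not test the sign. Changing the filter, variance model, block or probe sets left the differences at -0.52 and -0.61. Leaving out an array could not change the sign, since the groups did not overlap. Only the scaling could have done so. With repeated quantile normalization the differences were -0.48 for aic1 and -0.58 for eks1. With median-centred arrays they were -0.48 and -0.57. The difference of cncr1, whose groups also did not overlap, lay between -2.13 and -1.27 over the same 12 fits. Those of an1 (-0.18 to 0.01), abp1 (-0.12 to 0.01) and abp4 (-0.04 to 0.07) changed sign with 1 array left out, and abp4 also took -0.02; no member passed in any fit. The count of members at an unadjusted p under 0.05, 1 in the fit reported, was 0 with no filter, repeated quantile normalization, median-centred arrays or a replicate block, and 0 with any array left out. With no filter 3 of 6 members had groups that did not overlap, as d3 and adf1 were then counted, beside 54.9% of all 17555 probe sets. Of all tested probe sets, 17 passed in the fit reported, 9 with no filter, 0 with a replicate block and 0 with any array left out; at an unadjusted p under 0.05 there were 713, 1742 with no filter, and 473 to 976 with an array left out. The median of the gibberellin list, of 2 tested probe sets, was between -0.48 and -0.22 with an array left out. That of the auxin list was -0.01 with median-centred arrays and between -0.12 and -0.02 with an array left out. Fits with an array left out or with a replicate block have fewer residual degrees of freedom than the 2 of the fit reported. The part of this in the moves above was not tested, nor was any other cause of them. The replicate block is no part of the labelled design: deviations of arrays with the same number correlated at 0.348 across probe sets, which are not independent, and 2 pairs cannot show a pairing. No file gives a scan batch, so that alternative was not run.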
